A study of Mus musculus with 42 samples.

Results

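The genes of 9 neuronal nicotinic acetylcholine receptor subunits were followed across sensory ganglia of BALB/c mice. They were Chrna2, Chrna3, Chrna4, Chrna5, Chrna6, Chrna7, Chrnb2, Chrnb3 and Chrnb4. A member was every probe set whose platform annotation gives 1 of these symbols and no other. That rule found 3 of the 12488 probe sets of the MG-U74Av2 array, for 3 genes (Chrna6, Chrna7 and Chrnb2). On the Mouse430_2 array it found 19 of 45101 probe sets, which cover all 9 genes. No other probe set carried a member's symbol together with a second gene.

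The study compared dorsal root ganglia (DRG), which hold the cell bodies of spinal afferents, with nodose ganglia (NG), which hold those of vagal afferents. It ran 42 samples in 6 groups, all from untreated mice in ordinary housing, with no age, sex or genetic alteration in the labels. On MG-U74Av2, 5 samples were intact DRG and 7 were intact NG. Laser-captured neurons, about 150 per sample and labelled as visceral, were run on MG-U74Av2 (5 from DRG, 5 from NG) and on Mouse430_2 (9 from DRG, 11 from NG). The RNA of captured neurons on MG-U74Av2 was labelled as amplified and that of the other groups as total RNA. For captured neurons of both array types the labels give about 12 µg, and they do not state whether the Mouse430_2 RNA was amplified too. The sample descriptions name laser capture for every sample, the intact ganglia included, whereas the extraction notes and the design text separate them, and the latter were followed. The sources used here do not give how neurons were recognised as visceral. Whether each sample is a different animal is not stated, and p-values therefore cover the spread among samples only, part of which may be technical.

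Neuronal nicotinic receptors are pentameric cation channels of the cell membrane that open when acetylcholine binds between an alpha subunit and its neighbour. Chrna3 and Chrnb4 make the receptor typical of peripheral ganglia, into which Chrna5 can enter as an accessory subunit. Chrna4 with Chrnb2 makes the commonest receptor of the brain, Chrna7 can form a channel by itself, and Chrna6 and Chrnb3 join other subunits in a narrower set of neurons. On sensory neurons these receptors let acetylcholine and nicotine depolarise the cell, and vagal afferents are a classic site of such responses.

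The captured neurons carried neuronal genes at high level on Mouse430_2. The summed scaled signal of 12 sensory neuron genes ran from 25466 to 36226 in NG and from 30255 to 46260 in DRG. Of these 12 genes 2 were higher in NG (Prph and Uchl1) and 4 lower, led by the neurofilament genes Nefh (-1.60) and Nefm (-1.48) and by Avil (-0.37). Over all 13959 genes tested there, 26.6% had an adjusted p under 0.05 by limma, 13% higher in NG and 13.6% lower. The counts of this and the following cell type lists stand beside that share. Of 12 sympathetic neuron genes with a probe set, 10 were tested, 3 were higher in NG (Phox2a, Slc18a2 and Isl1) and none was lower. Whether these 3 genes came from sympathetic neurons or from the NG neurons themselves was not tested. Slc18a2 passed the filter mainly through NG, being above it on 9 of 11 NG and 1 of 9 DRG arrays. The summed signal of the sympathetic list was 1719 to 2738 in NG and 1403 to 1964 in DRG. Its part in the differences of Chrna3, Chrna5 and Chrnb4 given further on was not tested. The adrenergic genes Dbh, Th and Slc6a2 did not pass the test, at log2 differences of 0.27, -0.19 and -0.01, and the sympathetic factor Hand2 was too dim to test. Of 10 satellite glia and Schwann cell genes, 4 were lower in NG, led by S100b (-1.22), Gja1 (-1.15) and Glul (-0.76), and none was higher. Their sums of 7715 to 9327 in NG and 10234 to 12688 in DRG did not overlap. Of 6 tested endothelial genes 1 was higher (Kdr) and 1 lower (Esam), of 3 tested macrophage genes 1 was lower (Adgre1), and of 4 tested muscle and blood genes 1 was higher (Myl1). The log2 ratio of 3′ to 5′ beta-actin control probe sets was 2.80 ± 0.08 (SD, n = 5) in intact DRG and 2.94 ± 0.40 (n = 7) in intact NG. It was 5.45 ± 0.18 (n = 5) and 5.82 ± 0.23 (n = 5) in captured DRG and NG neurons on MG-U74Av2, and 5.61 ± 0.27 (n = 9) and 5.71 ± 0.37 (n = 11) on Mouse430_2. In such samples a smaller number of cells of a type and less RNA per cell cannot be told apart.

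On Mouse430_2 the subunits split by ganglion. The 3 genes of the ganglionic receptor, Chrna3, Chrna5 and Chrnb4, were higher in NG neurons, whereas Chrna7 and Chrna6 were higher in DRG neurons. Each gene is described by its probe set of highest mean signal, in scaled signal units, where each array was brought to the same trimmed mean. Differences are NG minus DRG in log2(signal + 7.48), tested with limma and adjusted by the Benjamini-Hochberg method over all 28107 probe sets past a filter on dim ones. Of the 9 members 7 passed that filter, and 5 of the 7 had an adjusted p under 0.05, 3 higher and 2 lower. Over all 13959 genes tested the same threshold called 26.6% (13% higher and 13.6% lower). The median difference of the 7 members was -0.17, against -0.02 for all genes tested. The groups did not overlap for 3 members, Chrna5, Chrna6 and Chrna7, as for 5.01% of all genes tested. Chrna5 passed the filter through NG alone, being above it on all 11 NG arrays and on 0 of 9 DRG arrays, so its place among the tested members was set by its high group.

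**Figure D1:**
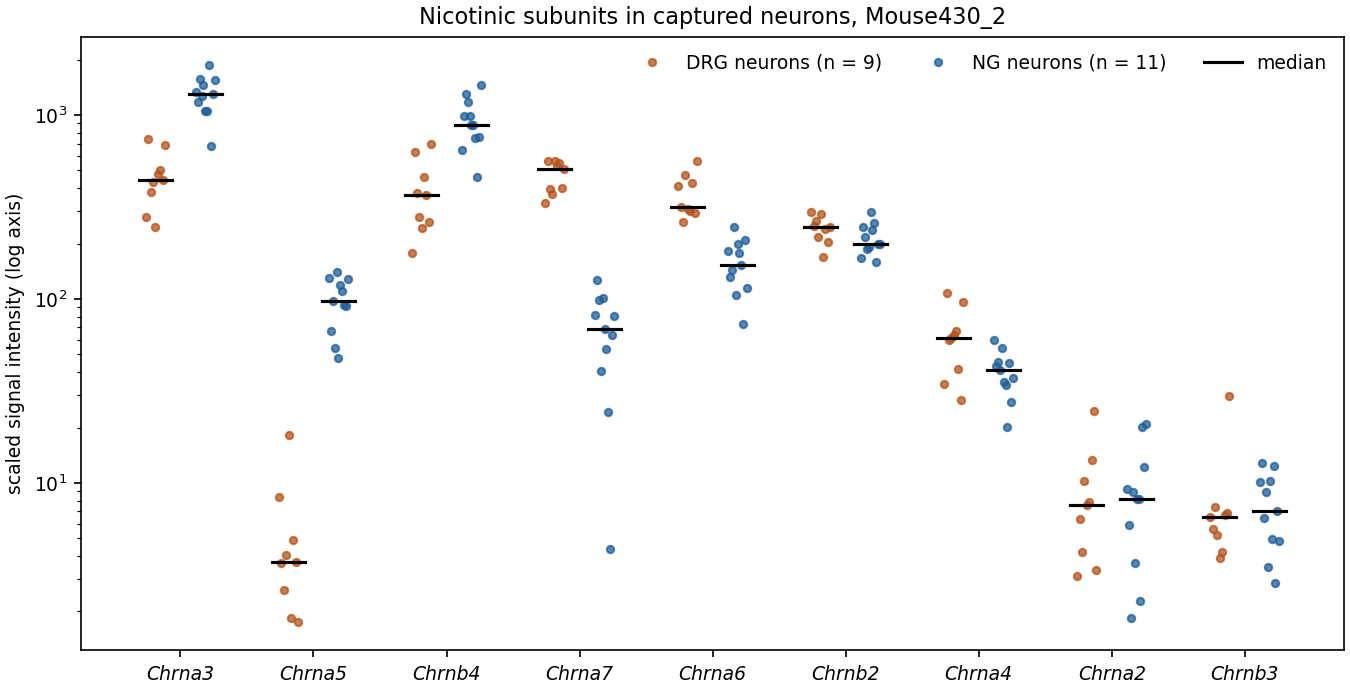
Scaled signal (log axis) of the 9 subunit genes in captured neurons on Mouse430_2, 1 point per array, with a bar at each group median (DRG n = 9, NG n = 11). Chrna5, Chrna6 and Chrna7 show no overlap between the ganglia, Chrna3 and Chrnb4 overlap by few arrays, and Chrna2 and Chrnb3 lie near the bottom of the arrays in both.

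Chrna3, the alpha subunit of the ganglionic receptor, had a lowest, median and highest signal of 679, 1309 and 1880 on the 11 NG arrays and of 247, 446 and 745 on the 9 DRG arrays. On 10 of 11 NG arrays it was above the highest DRG array. The means were 1303 ± 318 (SD, n = 11) and 466 ± 165 (SD, n = 9). The log2 difference was 1.51 (SE 0.18, 95% interval 1.13 to 1.88, 2.84-fold, limma adjusted p = 5.53e-07). Chrna3 has other probe sets, and 1455931_at rose as well, from 474 ± 212 to 1015 ± 430, by 1.10 (SE 0.23, limma adjusted p = 0.000611). The dim probe set 1444368_at had means of 26.5 in DRG and 41.9 in NG and did not pass (0.50, SE 0.27, limma adjusted p = 0.206).

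Chrnb4, the beta partner of Chrna3, ranged from 460 over a median of 888 to 1463 in NG and from 178 over 368 to 697 in DRG. Here 9 of 11 NG arrays were above the highest DRG array, and every NG array was above the DRG median. The means were 937 ± 292 (SD, n = 11) and 389 ± 178 (SD, n = 9), a log2 difference of 1.31 (SE 0.22, 95% interval 0.86 to 1.77, 2.48-fold, limma adjusted p = 6.08e-05). Its other probe set, 1425849_at, was too dim to test, with means of 11.4 and 8.43.

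Chrna5, the accessory subunit, was measured clearly in NG alone. Its signal was 48.0, 96.9 and 140.1 (lowest, median and highest) in NG and 1.75, 3.73 and 18.3 in DRG. In DRG its median lay at percentile 7.88 of all probe sets of an array, among the dimmest, and in NG at percentile 72.1. The log2 difference was 3.04 (SE 0.22, 95% interval 2.59 to 3.49, limma adjusted p = 3.92e-11). Its size depends on the constant added to so dim a signal, and ran from 2.10 to 4.15 over the other settings tried. The second Chrna5 probe set, 1427401_at, also separated the ganglia without overlap, at 34.1 ± 12.5 in NG and 9.15 ± 4.47 in DRG (log2 difference 1.31, SE 0.22, limma adjusted p = 4.47e-05). It too passed the filter through NG alone, on 10 of 11 NG and 0 of 9 DRG arrays.

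Chrna7, the subunit that can form channels alone, showed the opposite order. It ran from 332 over a median of 509 to 564 in DRG and from 4.36 over 68.7 to 126 in NG. Every DRG array was above every NG array. The means were 468 ± 91.6 (SD, n = 9) in DRG and 67.6 ± 35.7 (SD, n = 11) in NG, and the log2 difference was -2.87 (SE 0.30, 95% interval -3.49 to -2.25, limma adjusted p = 4.74e-08), 7.31-fold lower in NG. The probe sets of Chrna7 disagreed in size. The dimmer 1450299_at had means of 35.9 ± 13.2 in DRG and 23.2 ± 11.3 in NG and did not pass (-0.55, SE 0.25, 95% interval -1.07 to -0.04, limma adjusted p = 0.125).

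Chrna6, an alpha subunit of restricted distribution, was also higher in DRG without overlap. Its lowest, median and highest signals were 263, 317 and 561 in DRG and 73.2, 153 and 248 in NG. The means were 373 ± 101 (SD, n = 9) and 158 ± 50.9 (SD, n = 11), a log2 difference of -1.23 (SE 0.19, 95% interval -1.62 to -0.84, 2.35-fold, limma adjusted p = 1.67e-05). Its other probe set, 1450426_at, was too dim to test in both ganglia (6.29 and 6.43). The satellite glia and Schwann cell sums above moved in the same direction as Chrna7 and Chrna6, and their part in these differences was not tested. With the mean of all probe sets of a gene in place of the brightest, which brings in the dim ones, the 5 differences were smaller and still passed, at 1.04 for Chrna3, 0.74 for Chrnb4, 2.18 for Chrna5, -1.71 for Chrna7 and -0.61 for Chrna6.

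The subunits of the common brain receptor did not pass the test. Chrnb2 was present at 242 ± 40.9 in DRG and 215 ± 42.1 in NG, with a log2 difference of -0.17 (95% interval -0.45 to 0.11, limma adjusted p = 0.427). Chrna4 was 62.3 ± 26.6 in DRG and 40.2 ± 11.2 in NG, with a log2 difference of -0.49 (SE 0.21, 95% interval -0.93 to -0.06, limma adjusted p = 0.0994). Without DRG replicate 014 Chrna4 passed, at -0.60 (limma adjusted p = 0.0394). On 6 of 9 DRG arrays Chrna4 was above the highest NG array, whereas Chrnb2 was above it on 0 of 9. Chrna2 (8.95 ± 6.73 in DRG and 9.23 ± 6.44 in NG) and Chrnb3 (8.47 ± 8.09 and 7.63 ± 3.45) were near the bottom of the arrays in both and were not tested.

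**Figure D2:**
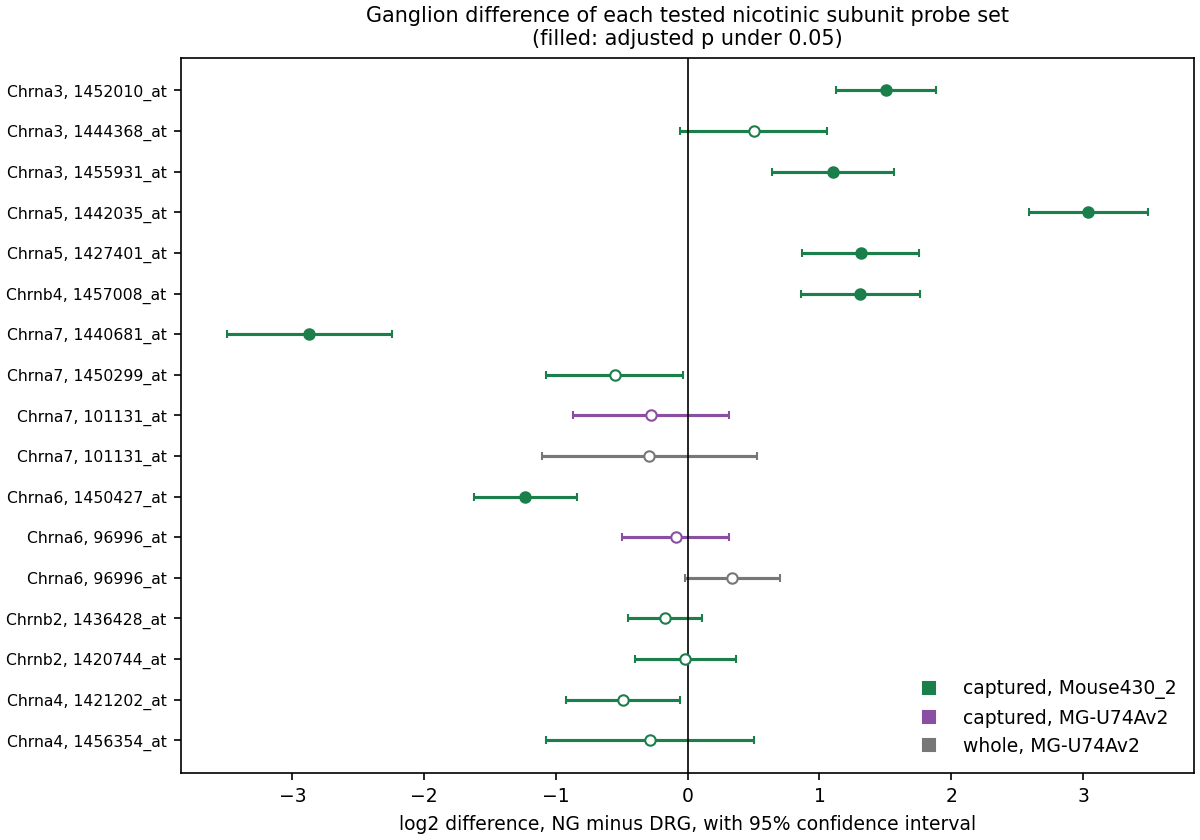
Log2 difference NG minus DRG of each tested probe set of the subunit genes, with its 95% interval. Captured neurons on Mouse430_2, captured neurons on MG-U74Av2 and intact ganglia on MG-U74Av2 are shown. Filled symbols have a limma adjusted p under 0.05. All 7 of them are among the 13 tested probe sets of Mouse430_2.

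Chrna5, Chrna3 and Chrnb4 are neighbours on mouse chromosome 9. In the RefSeq annotation of GRCm38.p6 the Chrna5 and Chrna3 gene models lie on opposite strands and overlap by 1304 bases. Where the probes lie relative to that overlap was not analysed here. The 250 bases before the annotated start of each are printed because the 3 genes moved together, and that of Chrna7 because it moved the other way. RefSeq promoter windows (GRCm38.p6) were found for 6 of the 9 members. Capitals mark the GC box GGGCGG, or its reverse complement CCGCCC, and the E box CAGCTG, each searched on both strands. Chrna5 has a further start with a window at chr9:54980630-54980879 that holds none of these motifs and 40% G and C.
Chrna5, second start, chr9:54981238-54981487, plus strand: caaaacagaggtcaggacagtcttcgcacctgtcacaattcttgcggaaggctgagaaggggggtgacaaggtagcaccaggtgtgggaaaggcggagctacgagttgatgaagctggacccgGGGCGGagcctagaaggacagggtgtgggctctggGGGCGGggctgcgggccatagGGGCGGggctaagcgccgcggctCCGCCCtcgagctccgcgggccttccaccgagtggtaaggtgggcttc
Chrna3, chr9:55026563-55026812, minus strand: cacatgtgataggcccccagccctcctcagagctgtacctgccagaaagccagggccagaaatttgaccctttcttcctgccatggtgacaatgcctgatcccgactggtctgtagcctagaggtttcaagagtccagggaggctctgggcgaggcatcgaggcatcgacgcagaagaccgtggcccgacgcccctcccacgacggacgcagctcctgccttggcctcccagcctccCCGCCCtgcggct
Chrnb4, chr9:55048545-55048794, minus strand: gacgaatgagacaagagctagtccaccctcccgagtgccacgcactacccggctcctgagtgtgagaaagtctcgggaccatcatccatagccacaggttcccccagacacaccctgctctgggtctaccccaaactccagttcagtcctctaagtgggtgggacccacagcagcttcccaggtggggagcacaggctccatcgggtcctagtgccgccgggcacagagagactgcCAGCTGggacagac
Chrna7, chr7:63212527-63212776, minus strand: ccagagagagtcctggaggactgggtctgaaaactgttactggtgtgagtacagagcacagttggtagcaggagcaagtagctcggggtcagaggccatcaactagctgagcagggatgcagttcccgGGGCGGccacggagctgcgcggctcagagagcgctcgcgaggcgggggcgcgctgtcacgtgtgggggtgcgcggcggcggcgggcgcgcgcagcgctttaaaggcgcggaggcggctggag
The second Chrna5 window holds 4 GC boxes, those of Chrna3 and Chrna7 hold 1 each, and that of Chrnb4 holds none but 1 E box. A GC box is found in 32.7% and an E box in 13% of the 32851 RefSeq windows of this length, so these matches only describe the letters. The CCAAT box, in 33.8% of windows, was found in no member's window. The printed windows hold 65.2%, 63.2%, 61.2% and 67.2% G and C in the order printed, against a median of 52.4% over all windows.

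Of the 3 nearest protein-coding genes on each side of the cluster, all 6 were tested on Mouse430_2, and none was higher in NG by limma. Ube2q2, next to Chrnb4 and encoding a ubiquitin-conjugating enzyme, was lower in NG (-0.93, SE 0.34, adjusted p = 0.0487), as was Fbxo22, an F-box protein gene (-0.52, SE 0.19, adjusted p = 0.0439). Psma4, the proteasome subunit gene next to Chrna5, differed by 0.08 (adjusted p = 0.834) here but was higher in captured NG neurons on MG-U74Av2 (790 against 531, 0.62, SE 0.18, adjusted p = 0.0252) and not in intact ganglia (-0.24, adjusted p = 0.24). The other 5 have no single-symbol probe set on MG-U74Av2. On Mouse430_2 Hykk, AY074887 and Nrg4 did not pass either. Around the Chrnb3 and Chrna6 pair 3 of 6 neighbours were tested. Of these Unc5d, a netrin receptor gene, was higher in NG (1.36, SE 0.26, adjusted p = 0.000249), Eif4ebp1, a translation repressor gene, was higher (0.61, SE 0.21, adjusted p = 0.0417), and Dusp26, a phosphatase gene, was lower (-0.38, SE 0.08, adjusted p = 0.0014).

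Within a ganglion the clustered subunits did not all vary together. Across the 9 DRG arrays Chrna3 and Chrnb4 correlated (Pearson r = 0.877, exact permutation p = 0.00292, adjusted over 6 relations 0.0175), with Spearman rho = 0.817 (exact permutation p = 0.0108, adjusted 0.0323), and r was 0.878 without the 2 arrays farthest from the median of Chrna3. Across the 11 NG arrays the same pair had r = 0.579 (permutation p = 0.0634, adjusted 0.0951), rho = 0.318 (adjusted 0.411), and r = 0.484 without 2 arrays, which did not pass. In DRG, Chrna3 and Chrna5 had r = -0.761 (exact permutation p = 0.0112, adjusted 0.0335) and rho = -0.617 (exact permutation p = 0.0857, adjusted 0.16), at Chrna5 signals near the bottom of the arrays. Under quantile normalization this r was -0.761 with an adjusted exact permutation p of 0.0596, so the call was lost. Chrna5 and Chrnb4 in DRG had r = -0.640 (exact permutation p = 0.0561, adjusted 0.0951) and rho = -0.867 (exact permutation p = 0.00451, adjusted 0.0271). In NG neither pair with Chrna5 passed (r = 0.320 with Chrna3 and r = -0.083 with Chrnb4). Of the sample numbers, 5 DRG and 5 NG also occur on MG-U74Av2, and arrays with and without a shared number were too few to correlate apart.

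**Figure D3:**
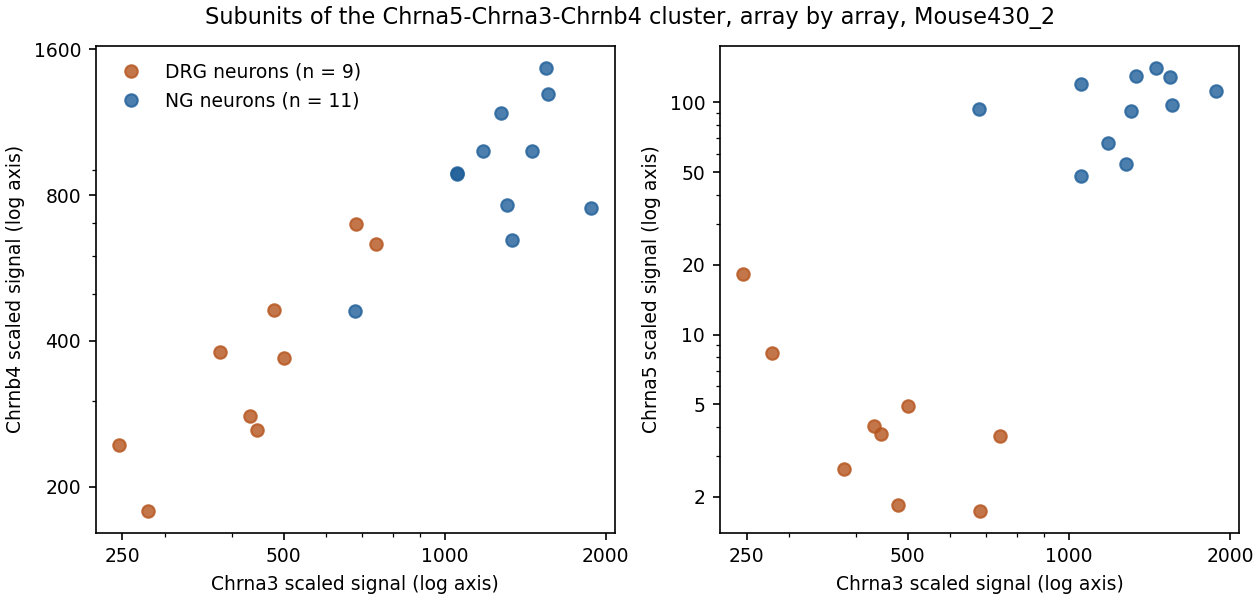
Scaled signal of Chrnb4 (left) and Chrna5 (right) against Chrna3, both on log axes, 1 point per Mouse430_2 array of captured neurons (DRG n = 9, NG n = 11). Chrna3 and Chrnb4 rise together among DRG arrays (r = 0.877). DRG arrays with the highest signal of the Chrna5 probe set shown, 1442035_at, have the lowest Chrna3 signal. That probe set is near the bottom of the arrays in DRG, and the second Chrna5 probe set is not shown.

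Over all 20 Mouse430_2 arrays and 13958 other genes tested, the genes most like Chrna5 were Gpr65, a proton-sensing receptor gene (r = 0.971), Galc, which encodes a lysosomal galactosylceramidase (r = 0.970), and Dmkn, which encodes dermokine (r = 0.965). Those most like Chrna3 were H2-D1, a class I histocompatibility gene (r = 0.933), Pttg1ip (r = 0.928) and Plcb3, a phospholipase C gene (r = 0.919). Chrnb4 was at rank 7 for Chrna3 (r = 0.912) and Chrna5 at rank 214 (r = 0.802). These values describe arrays that share the ganglion difference. After group means were subtracted, the r of Chrna3 was 0.755 with Chrnb4 and -0.229 with Chrna5. It was 0.693 with H2-D1, 0.666 with Pttg1ip and 0.701 with Plcb3. That of Chrna5 was 0.539 with Gpr65, 0.531 with Galc and 0.463 with Dmkn.

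On MG-U74Av2 no member passed in captured neurons, with limma, 2 members tested and 22.8% of all 5779 genes tested called. Chrna7 was 91.1, 140, 87.3, 101 and 121 in the 5 captured DRG samples and 111, 160, 45.9, 103 and 51.8 in the 5 captured NG samples, so the groups overlapped. Its means were 108 ± 22.0 and 94.3 ± 46.9, and the log2 difference was -0.28 (SE 0.28, 95% interval -0.87 to 0.31, adjusted p = 0.512). That interval and the one from the brighter Chrna7 probe set of Mouse430_2 do not meet. The interval of the dimmer Mouse430_2 probe set, 1450299_at (-0.55, 95% interval -1.07 to -0.04), overlaps it. The difference between the array types, whose probes differ, was not tested. The 5 DRG and 5 NG sample numbers here also occur among the captured neurons on Mouse430_2. Whether a shared number means shared material was not tested. Chrna6 was 31.7, 39.1, 43.3, 41.9 and 42.5 in captured DRG and 38.1, 36, 34.2, 41.8 and 32.5 in captured NG. Its log2 difference was -0.09 (SE 0.19, 95% interval -0.50 to 0.31, adjusted p = 0.77), at signals near percentile 41.1 of the array in DRG. Chrnb2 was too dim to test, at 27.7 ± 10.4 in DRG and 25.2 ± 5.68 in NG.

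In intact ganglia likewise no member passed, with 2 tested and 37.4% of all 5893 genes called. Chrna7 was 82.6, 62.2, 71.4, 39.8 and 121 in the 5 DRG samples and had a lowest, median and highest signal of 17.9, 86.4 and 124 in the 7 NG samples, a log2 difference of -0.29 (SE 0.38, 95% interval -1.11 to 0.52, limma adjusted p = 0.602). Chrna6 was 26, 36.1, 26.7, 39.6 and 35.7 in DRG and 34.0, 43.5 and 66.9 in NG, a log2 difference of 0.34 (SE 0.17, 95% interval -0.02 to 0.70, limma adjusted p = 0.138). Both genes overlapped between the ganglia. Chrnb2 was not tested, at 17.4 ± 5.87 in DRG and 29.3 ± 18.6 in NG.

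**Figure D4:**
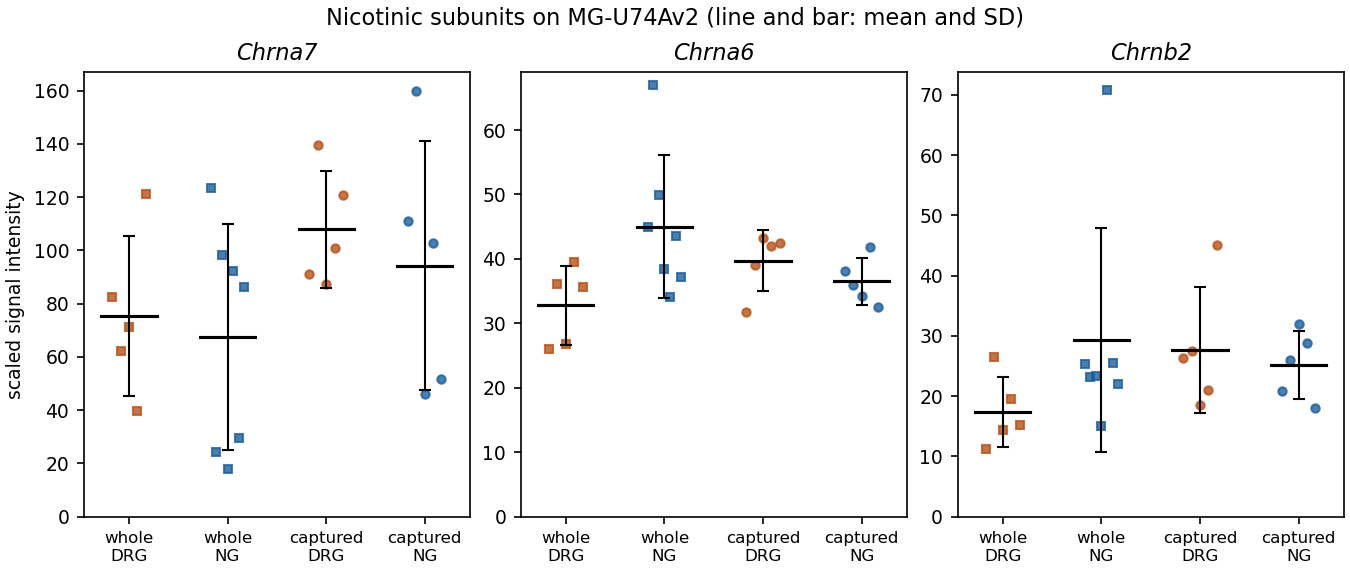
Scaled signal (linear axis) of Chrna7, Chrna6 and Chrnb2 on MG-U74Av2, 1 point per sample, for intact ganglia (DRG n = 5, NG n = 7) and captured neurons (n = 5 each). Lines mark the group means and error bars the SD. The ganglia overlap in each gene, in intact and in captured samples.

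Captured and intact samples could be compared on MG-U74Av2 in a joint limma fit of its 4 groups, where capture and RNA amplification cannot be told apart. No member passed in DRG, where 48.3% of 6257 genes were called, nor in NG, where 56.3% were called. The captured minus intact log2 difference of Chrna7 was 0.51 (SE 0.37, adjusted p = 0.271) in DRG and 0.53 (SE 0.34, adjusted p = 0.2) in NG. That of Chrna6 was 0.22 (SE 0.17, adjusted p = 0.316) in DRG and -0.22 (SE 0.16, adjusted p = 0.255) in NG. The ganglion difference itself was tested for a change between captured and intact samples, and 0 of 2 members passed, with 19.3% of genes called. It differed by 0.02 for Chrna7 (SE 0.51, 95% interval -1.02 to 1.06, adjusted p = 0.987) and by -0.43 for Chrna6 (SE 0.23, 95% interval -0.91 to 0.05, adjusted p = 0.21). In these 5 comparisons on MG-U74Av2 no tested member had an unadjusted p under 0.05.

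Partner genes of these receptors were read on Mouse430_2 in lists, each given by its tested members and by limma, where 26.6% of all genes tested were called. The lists were not tested against each other. Of 8 tested genes that help assemble or modulate nicotinic receptors, 1 was higher and 3 were lower in NG. Lypd1, whose product is a membrane-anchored protein that binds nicotinic receptors, was 934 ± 362 (SD, n = 11) in NG and 98.4 ± 32.1 (SD, n = 9) in DRG, 3.11 higher in log2 (SE 0.23, adjusted p = 8.62e-11) without overlap. Ly6e had a mean of 87.8 in DRG and lay near the bottom of the arrays in NG (median 2.15, percentile 3.08, above the filter on 1 of 11 arrays), below the constant of 7.48 added before the logarithm. That constant therefore sets the size of its difference (-3.04, SE 0.25, adjusted p = 4.85e-10), and no fold is given. Lypd6 differed by -0.99 (SE 0.31, adjusted p = 0.0214) and Ly6h by -0.73 (SE 0.27, adjusted p = 0.0496). The chaperone genes Ric3 (0.14) and Tmem35a (0.28) and the modulator gene Lynx1 (-0.10) did not pass.

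Of 6 tested genes for making, moving or breaking down acetylcholine, 2 were higher in NG and none lower. Ache, which encodes acetylcholinesterase, was 413 ± 156 in NG and 138 ± 83.3 in DRG (1.63, SE 0.30, adjusted p = 0.000177), and Bche, which encodes butyrylcholinesterase, was 273 and 132 (1.06, SE 0.19, adjusted p = 0.000165). Chat, the enzyme gene that marks neurons making acetylcholine, was dim in both ganglia (means 25.4 for NG, 24.5 for DRG) and did not pass (-0.18, adjusted p = 0.766). Of the muscarinic receptors 1 was tested, and Chrm1 was 137 ± 47.2 in NG and 63.1 ± 19.7 in DRG (1.03, SE 0.20, adjusted p = 0.000303). None of the 3 tested subunits of other nicotinic receptors passed. Over all genes tested the median difference was -0.02, against -0.21 for the assembly list and 0.40 for the acetylcholine list.

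On MG-U74Av2 the same lists gave fewer tested genes. Of all genes tested on that array, 37.4% were called in intact ganglia and 22.8% in captured neurons. In intact ganglia Ache was higher in NG, at 877 against 386 (1.10, SE 0.20, limma adjusted p = 0.000485), without overlap, and in captured neurons it did not pass (0.02, SE 0.31, limma adjusted p = 0.978). Of 3 tested assembly and modulation genes, Rapsn was higher (0.47, SE 0.14, limma adjusted p = 0.0137) and Ly6e lower in intact NG (-0.81, SE 0.20, limma adjusted p = 0.00441). In captured neurons Ly6e (-2.66, SE 0.51, limma adjusted p = 0.00182) and Ly6h (-1.66, SE 0.38, limma adjusted p = 0.00578) were lower in NG and none was higher. The Ly6e probe set differs from that of Mouse430_2, and either may match related transcripts. Here it was above the filter in all 5 captured NG and all 5 captured DRG samples, at means of 487 and 2170. Of 3 tested subunits of other nicotinic receptors Chrng was lower in captured NG (-0.92, SE 0.23, limma adjusted p = 0.00969), having passed the filter through DRG alone, and none passed in intact ganglia.

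**Figure D5:**
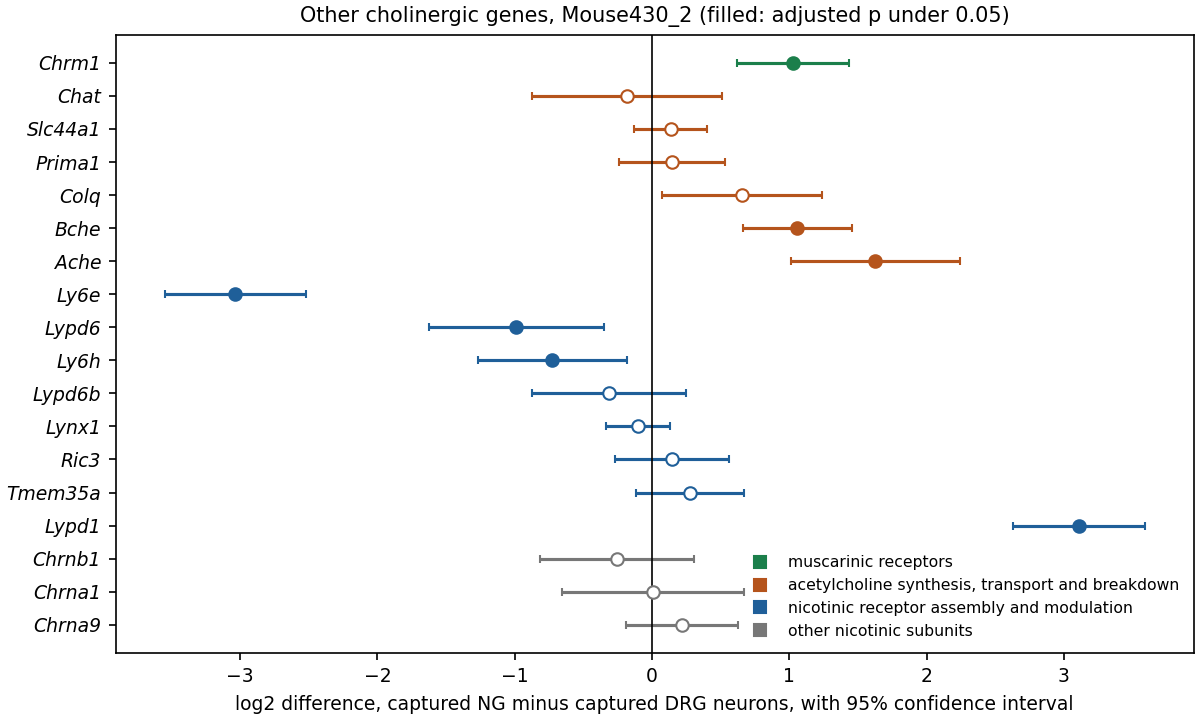
Log2 difference NG minus DRG in captured neurons on Mouse430_2, with its 95% interval, for tested genes of the cholinergic lists, coloured by list. Filled symbols have a limma adjusted p under 0.05. Lypd1 lies at 3.11, and the size shown for Ly6e is set by the constant added to its dim NG signal.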

How the data were processed

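The values used were signal intensities per probe set, as the authors deposited them, computed by MAS5, according to the submitters' processing notes (version: not given in the sources used here). Detection calls were not used. Each array was brought to the same mean after trimming 2% at each end, with 1 target per array type. Values were then taken as log2(signal + pseudocount), with the 20th percentile of each fit's values as pseudocount, which was 11.7 for intact ganglia, 11.0 and 7.48 for captured neurons (MG-U74Av2 and Mouse430_2 in turn) and 11.4 in the joint fit. A probe set was tested where it exceeded the 40th percentile of its array on a number of arrays no lower than the smaller group's size, with limma 3.58.1 in R 4.3.3 (trend and robust), and p-values were adjusted over all of them. This left 7698, 7583, 28107 and 8309 probe sets in those 4 fits. Before scaling, trimmed means ran from 84.2 to 408 over the arrays. The number of arrays per group limits the precision.

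The platform annotation gave 1 symbol to 10855, several to 396 and none to 1237 probe sets of MG-U74Av2, and to 34958, 932 and 9211 of Mouse430_2. The members and lists were chosen with earlier results of these data known. All 9 members are named. From the other lists the genes past the threshold are named, up to 3 per direction (the cell type lists on Mouse430_2, the cholinergic lists in the ganglion comparisons, and captured against intact samples in the closing section in part), for likeness the 3 genes of highest r, and as genomic neighbours the 3 nearest protein-coding genes on each side. The 3 adrenergic genes, Hand2, Chat, Ric3, Tmem35a and Lynx1 were added to these after their values were seen. The analysis code was tested on simulated data.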

Additional observations from a re-analysis of the deposited data

Results flagged for a closer look

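In 4 cases the highest array of a group of 7 or 9 stood apart from the others by more than Dixon's limit. Chrna2 was 24.6 in DRG replicate 014 on Mouse430_2, with 13.2 as the next value. Chrna5 was 18.3 in DRG replicate 005 on Mouse430_2, with 8.35 next, and stayed below every NG array. Chrnb3 was 29.8 in DRG replicate 006 on Mouse430_2, with 7.42 next. Chrnb2 was 70.7 in intact NG replicate 020 on MG-U74Av2, with 25.5 next. In all, 21 groups of values, of 5, 7 or 9 arrays each, were looked at, as signals without a logarithm. For normally spread values chance gives such a gap in about 1 of 20, and whether that rate holds for these signals was not tested. Of the 4, Chrna2, Chrnb3 and Chrnb2 were too dim to test in those comparisons. The captured NG group on Mouse430_2 (n = 11) was not checked in this way. There replicate 001 had the lowest Chrna7 signal, at 4.36, with 24.4 in replicate 007 as the next value. It was also the lowest NG array for Chrna3, Chrnb4, Chrna6 and Chrnb2, but not for Chrna5.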

How the results depend on the processing

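The 5 members called on Mouse430_2 kept their direction and call under every setting tried. These changed the scaling, the pseudocount, the filter, the probe sets of a gene, the array weights and the samples used. Another took the 3′ to 5′ ratio of the Gapdh control probe sets, not that of beta-actin, as a covariate. Over these settings the log2 difference ran from 1.04 to 1.66 for Chrna3, 0.74 to 1.71 for Chrnb4, -3.08 to -1.71 for Chrna7 and -1.43 to -0.61 for Chrna6. Leaving out each array in turn gave 5 or 6 called members, the sixth being Chrna4. On MG-U74Av2 the count of called members was 0 throughout. With the same median on every array, the median of all genes on Mouse430_2 was 0.12 and 67.1% of called genes were higher in NG, against 48.7% as reported, and 28.9% without scaling. In intact ganglia the share was 54.9% as reported, 40% with the same median and 12% without scaling. Under quantile normalization the correlation of Chrna3 and Chrna5 in DRG was -0.761 with an exact permutation p adjusted to 0.0596. For DRG and NG samples with the same number, deviations from the group means were correlated over all probe sets tested. The correlations ran from -0.154 to 0.155 over 7 shared numbers on Mouse430_2, with 2 over 0.1. In captured neurons on MG-U74Av2 they ran from -0.106 to 0.111 over 4 shared numbers, with 1 over 0.1. Number 005 on Mouse430_2 and number 008 on MG-U74Av2 were each other's best match in both ganglia. A replicate block on the number gave 5 called members on Mouse430_2 and 0 in captured neurons on MG-U74Av2, and it called 1144 genes higher and 1295 lower on Mouse430_2 (1810 and 1903 as reported) and 375 and 474 on MG-U74Av2 (632 and 688 as reported). The Gapdh 3′ to 5′ covariate gave 409 and 466 on MG-U74Av2. Without scaling the captured comparisons called 304 and 566 on MG-U74Av2 and 666 and 1641 on Mouse430_2, and the change of the ganglion difference 367 and 165 (516 and 693 as reported). No paired analysis was possible for intact ganglia because they share 1 number.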

Other observations

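Some cholinergic partner genes differed between captured and intact samples on MG-U74Av2, where capture and RNA amplification cannot be told apart. Of all 6257 genes tested, 48.3% were called in DRG, 56.3% in NG and 19.3% for the change of the ganglion difference. Slc44a1, a choline transporter gene, was higher in captured samples of DRG (1.12, SE 0.12, limma adjusted p = 6.08e-08) and NG (0.93, SE 0.12, limma adjusted p = 1.82e-07), without overlap in either. Ache was lower in captured than in intact NG, at 295 against 877 (-1.62, SE 0.26, limma adjusted p = 1.04e-05). The ganglion difference of Ly6h changed between intact and captured samples by -1.73 (SE 0.40, limma adjusted p = 0.00272), as it was higher in captured DRG neurons (385 against 171 in intact DRG) and lower in captured NG neurons (124 against 181).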
